A study of Mus musculus with 12 samples.

Results

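RP24-247B20.1 is a long noncoding RNA gene of mouse chromosome 9, and it is 1 of the 44,930 genes in the deposited table of olfactory mucosa RNA. It was picked by its symbol, and it was singled out because its level is higher in animals with the eB deletion. That difference is therefore given as a description, with no test. Of all genes, 19,100 had a normalized count of at least 10 in 6 or more animals and were tested, and RP24-247B20.1 was among them.

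The study sequenced ribosome-depleted total RNA from the dissected olfactory mucosa, the lining of the nose that holds the olfactory sensory neurons. The 6 eB deletion animals lack 1155 bp of chromosome 7 (chr7:102847692-102848846), which the series' title calls a class I odorant receptor enhancer, and the 6 wildtype animals have the element. All 12 were male, at postnatal day 30, and of a mixed 129S6;C57BL/6J background. The labels do not say whether the deletion was carried on one or both chromosomes, whether the animals were littermates, or which strain's copy of chromosome 9 each animal carried. The build of the deleted interval is not given beside it and was read as GRCm38, the build named in the submitters' processing notes.

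Long noncoding RNAs are transcribed by RNA polymerase II, are often capped, spliced and polyadenylated, and do not encode a protein. Some act near the gene that makes them, by holding chromatin factors or through the act of transcription itself, and some act elsewhere in the cell, but for most no function is known. They are typically of low abundance, confined to few cell types, and less conserved in sequence than coding genes. Each mature olfactory sensory neuron expresses 1 odorant receptor gene, and the class I receptor genes lie in a single cluster on chromosome 7, away from RP24-247B20.1.

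In GENCODE M21, RP24-247B20.1 carries the identifier ENSMUSG00000099696 and the name 2900052N01Rik and is typed as a lincRNA, a long noncoding RNA lying between genes. It spans 13,874 bp on the plus strand (GRCm38, chr9:46913493-46927366). Its 3 annotated transcripts have 4, 4 and 2 exons and lengths of 2695, 2380 and 2157 bases, and the exons together cover 3235 bases. The transcript with 2 exons reads on past the second exon of the others and ends there. No other gene of the deposited table overlaps it on either strand. RefSeq lists the same gene as a lncRNA that starts at position 46913603, inside the first GENCODE exon.

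The promoter is shown because it is the stretch of DNA at which transcription of the gene starts. RefSeq's sequence (GRCm38.p6, plus strand, chr9:46913353-46913652) runs from 250 bases before to 50 bases after that start, and capitals mark TAATTG on either strand.
2900052N01Rik promoter: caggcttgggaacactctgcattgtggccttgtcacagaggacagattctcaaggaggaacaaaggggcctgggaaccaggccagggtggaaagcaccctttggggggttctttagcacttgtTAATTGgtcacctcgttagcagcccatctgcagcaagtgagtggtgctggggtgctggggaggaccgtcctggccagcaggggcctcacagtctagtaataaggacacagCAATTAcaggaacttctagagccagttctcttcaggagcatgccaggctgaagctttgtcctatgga
Homeodomain factors such as Lhx2 and factors of the Ebf family are known regulators of olfactory sensory neuron genes, so 3 of their core motifs were searched on both strands. TAATTG, a homeodomain core, had 2 matches, the second being its reverse complement CAATTA, and 8.0% of 32,851 mouse promoters of the same length hold it. That share counts promoters with any match, and the share with 2 was not counted. By GENCODE's start, at position 46913493, the second match lies inside the first exon. The other homeodomain core, TAATTA, which 5.29% of promoters hold, and the Ebf core CCCNNGGG, which 13.7% hold, had 0 matches in this window. A match here is only a run of letters, and no binding was measured.

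The level of RP24-247B20.1 was higher in the eB deletion animals. In order, eB deletion animals 1 to 6 had 73.9, 140.9, 89.4, 140.0, 203.4 and 118.0 normalized counts. Wildtype animals 1 to 6 had 72.4, 33.2, 17.4, 42.2, 44.7 and 42.6 normalized counts. Every eB deletion value lay above every wildtype value, but the lowest eB deletion animal (animal 1) and the highest wildtype animal (animal 1) were 1.53 normalized counts apart. Separation of this kind, eB deletion above wildtype in all pairs of animals, occurred in 26 of the 19,100 tested genes (0.136%), and the opposite order in 30 genes (0.157%). Since the gene was chosen from this contrast, nothing is read from that share.

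The means were 128 ± 45.8 normalized counts in eB deletion animals and 42.1 ± 18.0 in wildtype animals (SD, n = 6 each), a ratio of 3.03. On the log2(normalized count + 1) scale the difference was 1.62 ± 0.28 (limma standard error). Among the tested genes, on that scale, 6 had a higher log2 fold change than RP24-247B20.1, and 5 were lower in eB deletion animals by more than that amount. In the authors' deposited table, which gives wildtype over eB deletion and shrinks fold changes towards 0, its log2 fold change is -0.32, so that the direction is the same and the size much smaller. In bulk tissue, more RNA per cell and more cells of a kind that makes the RNA cannot be told apart.

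**Figure D1:**
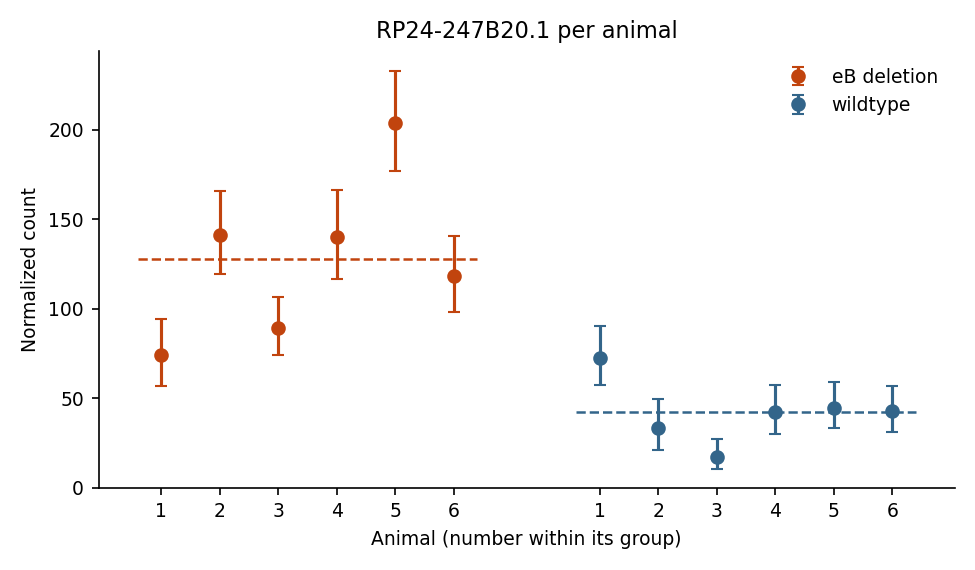
Normalized count of RP24-247B20.1 in each animal, with eB deletion animals on the left and wildtype animals on the right; bars are exact 95% Poisson intervals of the reads, covering counting error only, and dashed lines are group means. All 6 eB deletion animals lie above all 6 wildtype animals, and eB deletion animal 1 (73.9) and wildtype animal 1 (72.4) nearly meet.

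The reads behind these values were few but countable. They numbered 65, 148, 121, 128, 210 and 123 in eB deletion animals 1 to 6 and 78, 23, 18, 39, 50 and 46 in wildtype animals 1 to 6, out of 15,466,926 to 23,059,835 and 13,152,662 to 19,823,345 reads on genes per library. The exact 95% Poisson interval of eB deletion animal 1 was 57.1 to 94.2 normalized counts and that of wildtype animal 1 was 57.2 to 90.4, so that these neighbours in the order did not differ beyond counting error. Wildtype animals 4, 5 and 6 and eB deletion animals 2 and 4 likewise formed close sets whose intervals overlapped. The top value, in eB deletion animal 5, had an interval of 176.8 to 232.9, above the intervals of all other animals. Wildtype animal 3, the lowest, had an interval of 10.3 to 27.5, which overlapped that of wildtype animal 2 (21.0 to 49.8) and of no other animal.

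Per kilobase of exon, RP24-247B20.1 averaged 39.4 normalized counts in eB deletion animals and 13.01 in wildtype animals. Its mean level per kilobase over all 12 animals, 26.2, ranked 220 of the 599 tested lincRNA genes, whose median was 18.1. The mucosa's own cell types were present in both groups at high levels. Omp, the marker protein of mature olfactory sensory neurons, had 63,297 ± 4535 normalized counts in eB deletion animals and 64,608 ± 3979 in wildtype animals (SD, n = 6 each). Cyp2g1, a cytochrome P450 of sustentacular cells, the supporting cells of the epithelium, had 53,916 ± 3612 in eB deletion animals and 56,008 ± 5084 in wildtype animals (SD, n = 6 each).

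RP24-247B20.1 varied widely among animals of 1 genotype. The standard deviation of its log2 level was 0.52 within eB deletion animals and 0.65 within wildtype animals, 0.59 when pooled. That pooled spread exceeded the spread of 94.6% of all tested genes. It also exceeded that of 97.8% of the 1073 genes whose mean level lay within 1.2-fold of its own, where the median was 0.24. The variance of its normalized counts was 16.5 times the mean in eB deletion animals and 7.68 times the mean in wildtype animals, against a value of 1 for counting noise alone. The gene was singled out by its difference between genotypes and not by this spread, so the relation of the spread to other measures was tested. Earlier results of these data were known at that choice, so these tests may not be fully independent of them.

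The level was first set against properties of the libraries. Within groups, over 12 animals with group means removed, the correlation of the log2 level with the number of reads on genes was r = 0.12 (rho = 0.20), with permutation p = 0.717 for r and 0.558 for rho. With the number of genes that had a read it was r = -0.15 (rho = -0.27), with permutation p = 0.648 and 0.407. Of the libraries, 4 stood apart by reads on the predicted gene Gm10800, which took 0.554% and 2.38% of reads in eB deletion animals 1 and 4 and 11.02% and 0.329% in wildtype animals 2 and 5, against at most 0.00514% in the other 8. The correlation with that percentage was r = -0.12 (rho = -0.23), with permutation p = 0.585 and 0.399. Without the 4 libraries the log2 difference between eB deletion and wildtype was 1.74 ± 0.37 (n = 4 each), and among those 4 alone it was 1.38 ± 0.33 (n = 2 each).

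Around the gene itself, no other gene passed the test between genotypes. Of 38 genes in the table within 1 Mb, 17 were tested, 9 of them protein-coding, and 0 passed an adjusted p of 0.05 between eB deletion and wildtype, where limma called 0 of 19,100 genes (0%) in all, edgeR called 0 (0%) and DESeq2 called 22 (0.115%). At an unadjusted p under 0.05 there was 1 neighbour of 17 (5.88%), beside 1078 of all 19,100 genes (5.64%), of which 540 were higher (2.83%) and 538 lower (2.82%). In a window of 500 kb it was 1 of 5 tested neighbours and in a window of 2 Mb 8 of 46, with 0 called by limma in both. The neighbours' median log2 fold change was -0.07, beside 0.00 over all tested genes, with 5 higher and 12 lower. The 9 protein-coding neighbours differed by 0.02 to 0.16 on the log2 scale, in either direction.

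The nearest tested gene downstream, Gm4791 (RP23-304K3.1 in the table), annotated as protein-coding and 71.4 kb away, had a log2 fold change of -0.08 ± 0.34. Gm31698 (RP23-304K3.2) and Gm31816 (RP23-235J18.1), lincRNA genes 159 and 315 kb downstream on the minus strand, had -0.25 ± 0.22 and -0.00 ± 0.25. Farther downstream, 603 kb away, Cadm1, which encodes a cell adhesion molecule of the immunoglobulin superfamily, had 5608 ± 113 normalized counts in eB deletion animals and 5793 ± 183 in wildtype animals (SD, n = 6 each). Upstream, Bud13, which encodes a subunit of the pre-mRNA retention and splicing complex, lies 614 kb away and had a log2 fold change of -0.16 ± 0.08. The lincRNA gene Gm31432 (RP23-363G20.2), 370 kb upstream, had -0.68 ± 0.33. The adjusted p of the 17 neighbours ran from 0.796 to 1.00 by limma.

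Gm31557 (RP23-158J3.1), a lincRNA gene on the plus strand 239 kb upstream (chr9:46666273-46674844), was the neighbour past the unadjusted threshold. It had 35.3, 0.952, 43.6, 4.38, 2.91 and 33.6 normalized counts in eB deletion animals 1 to 6, against 39.9, 73.6, 48.3, 44.3, 40.2 and 21.3 in wildtype animals 1 to 6. Its log2 fold change was -1.90 ± 0.67, with an unadjusted p of 0.0116 and an adjusted p of 0.796 by limma. On the recovered reads it was -1.10 by edgeR and -1.16 by DESeq2. The eB deletion animals 2, 4 and 5, with 4.38 or less, were the 3 animals with the highest RP24-247B20.1, and the other 9 animals, of both genotypes, had 21.3 or more.

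**Figure D2:**
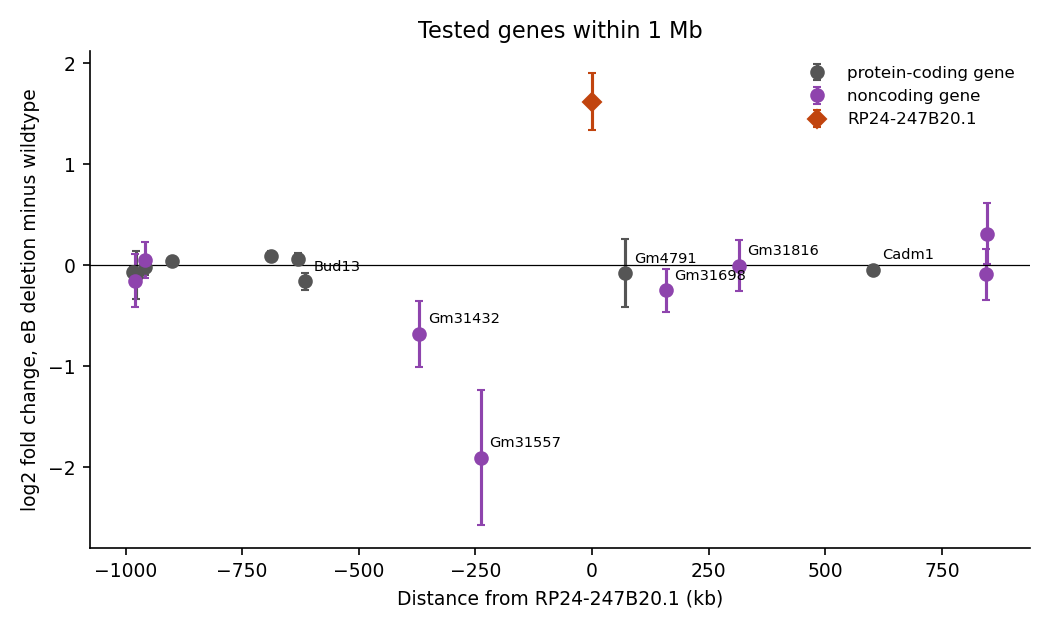
Log2 fold change, eB deletion minus wildtype, of RP24-247B20.1 (diamond) and the 17 tested genes within 1 Mb, against the distance in kb between the genes' nearest ends; bars are limma standard errors, n = 6 each. Protein-coding neighbours lie within 0.16 of 0, and the lincRNA gene Gm31557 is the lowest at -1.90.

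The spread of RP24-247B20.1 within groups was then set against every other gene, with group as a term in the model, so that only differences among animals of 1 genotype count. By limma 0 of 19,099 genes (0%) were associated at an adjusted p of 0.05, and 1144 (5.99%) had an unadjusted p under 0.05, 647 of them with a positive slope (3.39%) and 497 with a negative one (2.6%). edgeR's quasi-likelihood test on the recovered reads called 0 (0%). DESeq2 on the same reads called 16 (0.0838%), and 8 of these 16 lie on chromosome 9, which holds 6.15% of the tested genes. The 8 are the lincRNA gene C030014I23Rik (RP24-175C20.1), the antisense gene Gm3896 (RP23-119C14.3), Olfr905, Olfr874, Olfr911-ps1, Ift46, Fxyd6 and Adam10. Of these, Adam10 lies 23.8 Mb from RP24-247B20.1.

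Position on chromosome 9 went with association. Of the 17 tested neighbours within 1 Mb, limma called 0 for association and 3 (17.6%) had an unadjusted p under 0.05, namely Gm31557 (slope -1.32), Gm4791 (0.63) and Gm47197 (RP24-174I4.2, -0.57), the last typed as a transcript still to be checked by experiment. Of the 303 tested genes within 10 Mb of RP24-247B20.1, 60 (19.8%) had an unadjusted association p under 0.05. Of the 175 genes at 10 to 20 Mb, 21 (12%) did, of the 302 at 20 to 40 Mb, 21 (6.95%), and of the 394 farther away, 22 (5.58%). On all other chromosomes together the share was 1020 of 17,925 (5.69%). Chromosome 9 as a whole had 124 of 1174 (10.6%), the highest of any chromosome, followed by chromosome 18 with 9.70% and chromosome 16 with 7.94%. Of the 20 genes of smallest association p, 7 lie on chromosome 9 (35.0%), as do 25 of the first 100 (25%). Neighbouring genes are not independent of each other, and these shares are counts with no test of their own.

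**Figure D3:**
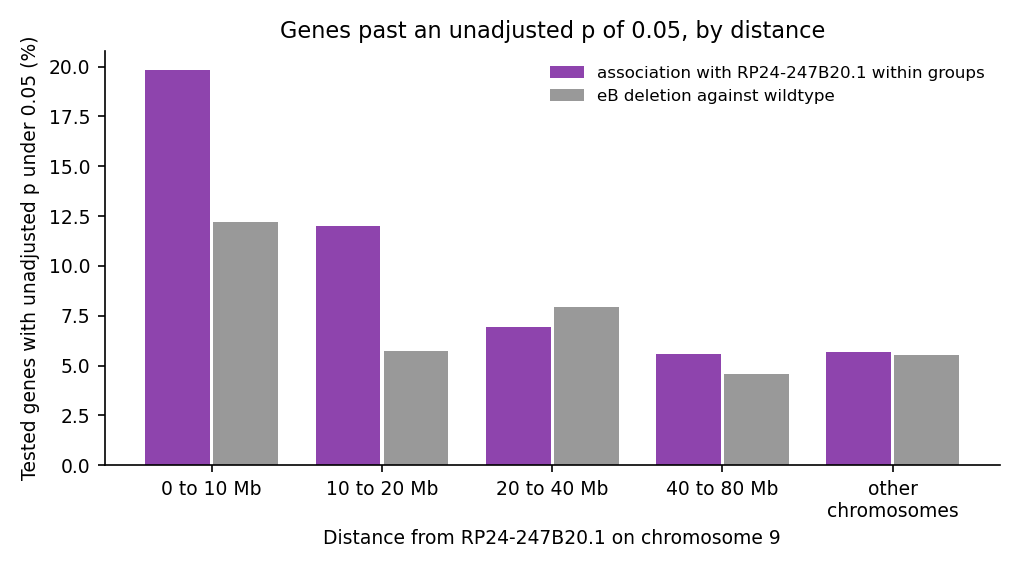
Percent of tested genes with an unadjusted p under 0.05, by distance from RP24-247B20.1 on chromosome 9 and on all other chromosomes; purple bars are the association with RP24-247B20.1 within groups, grey bars the comparison of eB deletion with wildtype. The association share is 19.8% within 10 Mb and 5.69% on other chromosomes, and the genotype share is 12.2% and 5.51%. RP24-247B20.1 was chosen from the genotype contrast, so nothing is read from the grey bars.

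The pattern was present in both genotypes taken alone. Within eB deletion animals alone 39 genes within 10 Mb had an unadjusted p under 0.05 (12.9%, beside 3.14% of all tested genes), and within wildtype animals alone 52 did (17.2%, beside 4.95%). Leaving out any 1 animal gave 40 to 63 genes, the fewest without wildtype animal 1 (13.2%, beside 4.02% of all tested genes). Leaving out the 4 libraries in which Gm10800 took over 0.1% of reads gave 58 (19.1%, beside 8.31%). The comparison of genotypes held a like excess within 10 Mb, where 37 of 303 genes (12.2%) had an unadjusted p under 0.05 between eB deletion and wildtype, beside 5.51% on other chromosomes, none of them past the adjusted threshold.

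**Figure D4:**
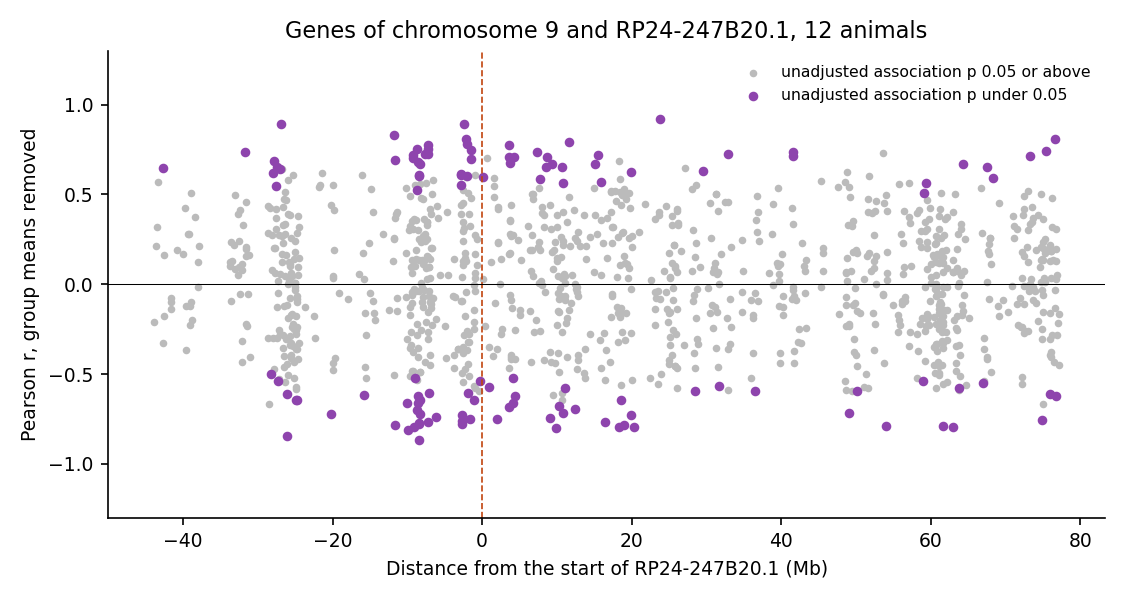
Pearson correlation of each tested gene of chromosome 9 with RP24-247B20.1 over 12 animals, group means removed, against the distance in Mb between gene starts; purple points have an unadjusted association p under 0.05. Purple points of both signs crowd within 10 Mb of RP24-247B20.1, where 60 of 303 genes have one when distance is taken between nearest ends.

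C030014I23Rik, a lincRNA gene 2.43 Mb upstream (chr9:44468344-44482180), had the smallest association p of these genes by limma. It had 25.03, 54.3, 33.2, 44.8, 47.5 and 23.0 normalized counts in eB deletion animals 1 to 6, against 63.1, 20.2, 7.72, 37.8, 34.9 and 32.4 in wildtype animals 1 to 6. Its groups overlapped throughout, with means of 37.98 ± 12.8 in eB deletion animals and 32.7 ± 18.6 in wildtype animals (SD, n = 6 each). Wildtype animals 1 and 3, the highest and the lowest of their group for RP24-247B20.1, were also the highest and the lowest of their group here. Its association slope was 1.18 log2 units per log2 unit, with an adjusted p of 0.390 by limma and 0.00432 by DESeq2. Within wildtype animals alone the slope was 1.48 (r = 0.99), and within eB deletion animals alone it was 0.68 (r = 0.71).

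Gm3896, annotated on the opposite strand of Pknox2, a homeobox gene, lies 9.89 Mb upstream (chr9:37015758-37020671). The strand setting of the counting is not given, so its reads and those of Pknox2 may not be separate. It had 286.7, 17.1, 245.2, 17.5, 9.69 and 307.9 normalized counts in eB deletion animals 1 to 6, against 3.71, 555.5, 615.8, 270.3, 294.1 and 253.8 in wildtype animals 1 to 6. The values fall into 3 separate ranges that cross the genotypes, so that no correlation is given. The lowest range, 3.71 to 17.5, holds eB deletion animals 2, 4 and 5 and wildtype animal 1. The middle range, 245.2 to 307.9, holds eB deletion animals 1, 3 and 6 and wildtype animals 4, 5 and 6. The highest, 555.5 to 615.8, holds wildtype animals 2 and 3.

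RP24-247B20.1 ran the other way across these ranges. In eB deletion animals it was at 140.0 to 203.4 normalized counts in the lowest Gm3896 range and at 73.9 to 118.0 in the middle range. In wildtype animals it was at 72.4 in the lowest range, at 42.2 to 44.7 in the middle range and at 17.4 to 33.2 in the highest. Within the lowest and the middle range, every eB deletion animal was above every wildtype animal. That order was fixed beforehand, since it holds over all animals and RP24-247B20.1 was chosen from this contrast. Nothing is read from it. The highest range held no eB deletion animal.

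**Figure D5:**
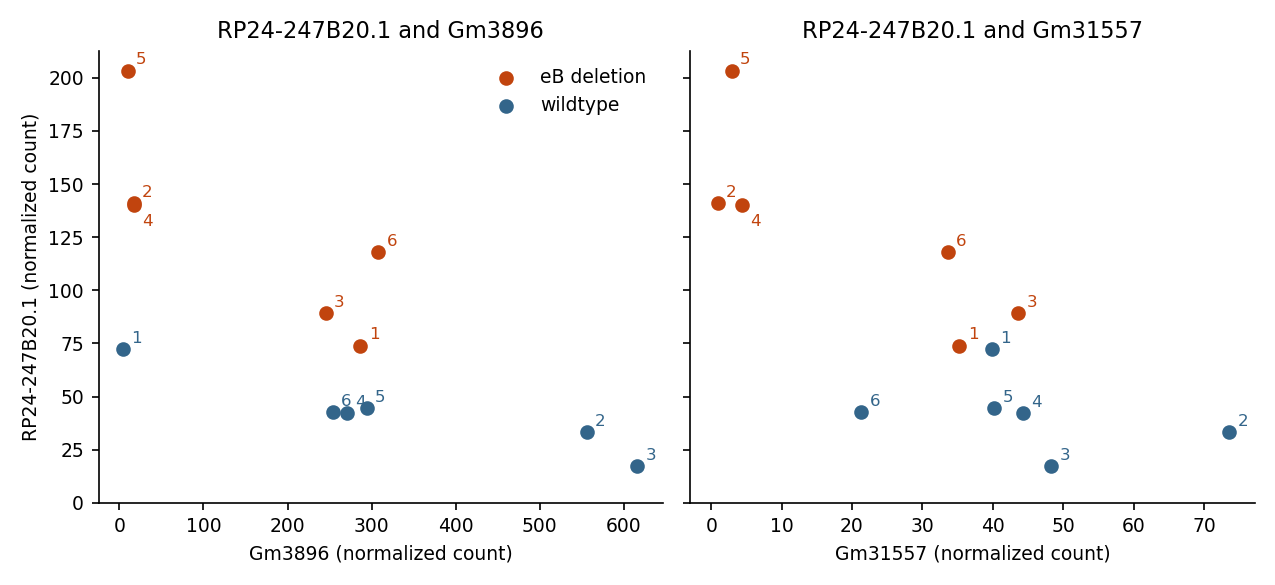
Normalized count of RP24-247B20.1 (vertical) against that of Gm3896 (left panel) and Gm31557 (right panel) in each animal, numbered within its group, eB deletion in orange and wildtype in blue. Gm3896 lies in 3 separate ranges, of which the highest holds wildtype animals only. Within each genotype RP24-247B20.1 is lower in the higher ranges of Gm3896, though not from animal to animal inside a range.

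With Gm3896 as a covariate the difference between genotypes was smaller, and its direction was the same. By ordinary least squares over 12 animals, the log2 difference of RP24-247B20.1, eB deletion minus wildtype, was 1.62 ± 0.34 with no covariate and a residual SD of 0.59. With the normalized count of Gm3896 as a covariate it was 1.11 ± 0.19, a 2.15-fold difference, with a residual SD of 0.29. With the log2 level of Gm3896 it was 1.34 ± 0.22, with that of C030014I23Rik 1.36 ± 0.17, and with that of Gm31557 1.197 ± 0.372. These covariates were chosen after their values were seen, and the errors do not carry that choice. Gm3896 and C030014I23Rik were among the chromosome 9 genes of smallest association p, so a smaller residual SD follows from that choice. RP24-247B20.1 was chosen from this contrast, and the highest Gm3896 range held no eB deletion animal. The differences are therefore descriptions and not tests. What Gm3896 marks was not tested, and the strain origin of chromosome 9 in each animal was not analysed here.

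Other chromosome 9 genes of small association p included odorant receptor genes of a class II cluster upstream. Olfr874, 9.16 Mb upstream, had 91.0, 17.1, 73.1, 19.7, 12.6 and 72.9 normalized counts in eB deletion animals 1 to 6, against 16.7, 170.3, 120.6, 90.8, 98.3 and 105.6 in wildtype animals 1 to 6. Its 4 lowest animals were the 4 of the lowest Gm3896 range. Olfr905, 8.44 Mb upstream, ranged from 13.6 to 46.5 in eB deletion animals (median 24.8) and from 19.5 to 86.9 in wildtype animals (median 53.3). Both had negative slopes, of -1.60 and -1.06, and adjusted p = 0.390 by limma. Receptor genes have near-identical relatives, so reads may be shared among them and their single values are uncertain.

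Ift46, which encodes a component of the intraflagellar transport complex that builds cilia, lies 2.12 Mb upstream and was associated with RP24-247B20.1 by DESeq2 (adjusted p = 0.0433) but not by limma (adjusted p = 0.414). It ranged from 1128 to 1511 normalized counts in eB deletion animals (median 1320) and from 921 to 1297 in wildtype animals (median 1146). Gm47235 (RP24-247A8.2), a lincRNA gene 9.87 Mb downstream, ranged from 5.81 to 30.7 in eB deletion animals (median 14.4) and from 22.3 to 44.4 in wildtype animals (median 23.7). Its slope was -1.04 with an adjusted p of 0.414 by limma. Slopes near RP24-247B20.1 therefore went both ways.

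The genes whose pattern over the 12 animals was most like that of RP24-247B20.1, with group means removed, were Mtdh on chromosome 15 (r = 0.93, rho = 0.94), Adam10 on chromosome 9 (r = 0.92, rho = 0.87), Olfr867 on chromosome 9 (r = 0.89, rho = 0.83), C030014I23Rik (r = 0.89, rho = 0.86) and Sod2 on chromosome 17 (r = 0.87, rho = 0.86). Those most opposite were Tctex1d1 (r = -0.93, rho = -0.90), Dbn1 (r = -0.93, rho = -0.90), Ankzf1 (r = -0.90, rho = -0.77), Mks1 (r = -0.89, rho = -0.81) and Plekhn1 (r = -0.88, rho = -0.91). Adam10 lies 23.8 Mb downstream of RP24-247B20.1 and Olfr867 26.9 Mb upstream. Both are at 20 to 40 Mb, where 6.95% of tested genes had an unadjusted association p under 0.05 by limma. Adam10 encodes a membrane protease that sheds the outer parts of proteins such as Notch, and Sod2 the superoxide dismutase of mitochondria. Dbn1 encodes drebrin, an actin-binding protein, and Mks1 a protein of the transition zone at the base of cilia.

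These 10 were taken as the extremes of 19,099 genes, so their permutation p for r, 3.0e-05 to 0.0031, are descriptions and not tests. Their association adjusted p ran from 0.390 to 0.819 by limma. For each gene, r was also taken without the 2 animals in which that gene lay farthest from its own median. That r was 0.88 for Mtdh, 0.85 for Adam10, 0.72 for C030014I23Rik, -0.93 for Dbn1, 0.67 for Sod2 and -0.73 for Ankzf1. Their own ranges differed in width. C030014I23Rik, described above, and Tctex1d1, at 11.6 to 22.9 normalized counts in eB deletion animals and 13.9 to 30.9 in wildtype animals, varied more widely than Adam10 or Dbn1. Adam10 ranged from 1711 to 2035 normalized counts in eB deletion animals (median 1810) and from 1532 to 2079 in wildtype animals (median 1776), and Dbn1 from 750 to 892 in eB deletion animals (median 804) and from 834 to 1183 in wildtype animals (median 910).

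Marker lists of the mucosa's cell types were read in the same association fit. Over 14 lists, 92 genes were tested, 0 were called by limma, and 11 (11.96%) had an unadjusted p under 0.05, 10 with a positive slope, beside 5.99% of all tested genes, 3.39% with a positive slope. Ensheathing glia, the cells that wrap the axons of olfactory sensory neurons, had 3 of 7 genes with a positive slope at that level, among them Npy (slope 0.58) and Fabp7 (0.19), and a median slope of 0.19, beside 0.00 over all tested genes. Sustentacular cells had 2 of 7, Ermn (0.15) and Sult1c1 (0.16), with a median slope of 0.11. Mature olfactory sensory neurons had 1 of 10, Gng13, a G protein subunit, with a median slope of 0.01. Single genes at that level were also found for immature olfactory sensory neurons (Dpysl3, slope 0.16, 1 of 8), horizontal basal cells, the resting stem cells of the epithelium (Itga6, 0.18, 1 of 6), Bowman's glands, which secrete the mucus (Obp2a, 1.41, 1 of 6), and immediate early genes (Dusp1, 0.21, 1 of 10). Neuronal progenitors (0 of 8), microvillar cells (0 of 6) and ciliated respiratory cells (0 of 6) had no gene at that level. Nor did immune cells (0 of 6) and red blood cells (0 of 5). Vomeronasal neurons had 0 of 2, with 5 genes listed, too few to read anything from.

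No list had a member at 0 in all animals, and the summed marker levels of the groups overlapped. The ensheathing glia list summed to 3835 to 4883 normalized counts in eB deletion animals and 3997 to 5765 in wildtype animals. The sustentacular list summed to 201,212 to 253,197 in eB deletion animals and 202,110 to 279,364 in wildtype animals. In the nasal skeleton and muscle list, Acta1, skeletal muscle actin, had a negative slope (-1.14, unadjusted p = 0.00319 by limma, 1 of 5 genes), and that list summed to 32,547 to 57,238 in eB deletion animals and 20,569 to 57,894 in wildtype animals. The immediate early list had the highest median log2 fold change of the 14 lists, 0.42, beside 0.00 over all tested genes, with 0 of 10 genes called by limma. It summed to 5199 to 6869 in eB deletion animals and 4246 to 5746 in wildtype animals, and its part in the difference of RP24-247B20.1 was not tested. Which cell type makes RP24-247B20.1 was not tested either.

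The class I odorant receptor genes, the genes that the deleted element is named for, were set against RP24-247B20.1 within groups. The class I share of receptor reads had r = -0.56 (permutation p = 0.0384, adjusted p = 0.192 over 5 measures) and rho = -0.48 (permutation p = 0.133, adjusted p = 0.558) over 12 animals with group means removed. Without the 2 animals whose share lay farthest from its median, r was -0.35. With the mean log2 level of class I genes in place of their share, r was -0.21 (adjusted permutation p = 0.717). Within eB deletion animals r was -0.82 (exact permutation p = 0.0528, n = 6) and within wildtype animals -0.32 (exact permutation p = 0.582, n = 6). The mean log2 level of immediate early genes, whose RNA rises with cell activity and handling, had r = 0.36 (permutation p = 0.306, adjusted p = 0.717) and rho = 0.24 (permutation p = 0.462). None of the 5 measures passed the adjusted threshold.

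Genes named after genomic clones, as RP24-247B20.1 is, numbered 19,362. Of these 3063 were tested, 88 were higher and 57 lower in eB deletion animals at an unadjusted p under 0.05 (4.74%, beside 5.64% of all tested genes), and limma called 0. Their median log2 fold change was 0.01. On the log2(normalized count + 1) scale, those with a higher log2 fold change than RP24-247B20.1 were the processed pseudogenes Gm7887 (RP24-124B23.7), on chromosome 6, at 2.27 ± 0.88, and Gm11942 (RP23-360H6.2), on chromosome 4, at 1.68 ± 0.62. On the recovered reads both were below RP24-247B20.1: edgeR gave 0.80 for Gm7887 and 1.04 for Gm11942, against 1.58, and DESeq2 gave 0.80 and 1.07, against 1.59. The genotypes overlapped in both. Gm7887 ranged from 44.8 to 106.5 normalized counts in eB deletion animals (median 66.3) and from 0.928 to 111.7 in wildtype animals (median 21.6). Gm11942 ranged from 221.8 to 613.1 in eB deletion animals (median 362.4) and from 15.9 to 335.3 in wildtype animals (median 235.2). Pseudogenes share sequence with their parent genes, so these reads are uncertain.

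At the other end were the lincRNA gene Gm42047 (RP24-286J21.7), on chromosome 8, at -2.92 ± 1.15, then Gm31557 at -1.90 ± 0.67 and Gm3896 at -1.45 ± 1.12. On the recovered reads the log2 fold change of Gm42047 was -1.35 by edgeR and -1.31 by DESeq2. That of Gm3896 was -2.50 without wildtype animal 1, -0.93 without eB deletion animal 5, and -0.76 without the 2 libraries in which Gm10800 took over 1% of reads. Gm42047 had 105.8, 109.5, 0, 159.7, 0 and 87.3 normalized counts in eB deletion animals 1 to 6, against 93.8 to 343.6 in wildtype animals (median 175.6). Among these 5 genes the eB deletion values overlapped the wildtype values. Those of RP24-247B20.1 did not, but it was chosen from this contrast, so nothing is read from that. Over the 599 tested lincRNA genes the median log2 fold change was -0.01, with 7 higher and 24 lower at an unadjusted p under 0.05 (5.18%), beside 2.83% higher and 2.82% lower of all tested genes (5.64%).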

How the data were processed

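RNA of 12 olfactory mucosae was sequenced from libraries made with a stranded, ribosome-depleting kit, per the labels' protocols. The deposited table holds 1 signal per gene and animal, a normalized count, which the values show to be whole reads scaled by the authors with a factor of each library. It also holds the authors' own comparison, with a deposited log2 fold change (wildtype over eB deletion), its standard error, a score (the test statistic), and a p-value and adjusted p-value as the authors gave them. STAR 2.6.0, GRCm38.p6 and DESeq2 are named in the submitters' processing notes. How reads were counted per gene, on which annotation and with which strand setting, is not given in the sources used here.

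In every library 100% of nonzero values were whole multiples of 1 unit (relative tolerance 0.001), so whole reads were recovered for the count tests, which called 0 genes (edgeR 4.0.16) and 22 genes (DESeq2 1.42.0) between genotypes. The tests reported used limma-trend, from limma 3.58.1 under R 4.3.3, on log2(normalized count + 1). Genes entered at 10 or more normalized counts in at least 6 animals, with Benjamini-Hochberg adjustment over all tested genes at 0.05. The association test has group and the log2 level of RP24-247B20.1 as terms. Fold changes on the log2(normalized count + 1) scale depend on the pseudocount. For genes with some animals near 0 they can exceed those on the recovered reads, as for Gm7887 and Gm42047. Scripts were tested on simulated data.

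Correlations over 12 animals used group means removed and 100,000 permutations, and those within a group all orders, both two-sided (scipy 1.17.1). Tables and plots were made with pandas 2.3.3 and matplotlib 3.10.9 under Python 3.11.15. Poisson intervals are exact 95% intervals of reads and cover counting error only. Each group has 6 animals, and p-values measure the spread between them. No pair of libraries within a group was near sampling noise (smallest chi-square per degree of freedom 14.5). GENCODE M21, on the files' build, matched 44,811 gene identifiers and not the other 119. Distances run between the nearest ends of genes, except in the plot of correlations, which uses gene starts. Genes named were the 3 nearest tested genes on each side, the 5 most and 5 least correlated, and the 3 clone-named genes of largest change each way. The rule also gave the 2 most abundant genes of each marker list, of which those of the tissue check are printed. Cadm1, Fxyd6, Olfr874, Olfr905, Olfr911-ps1, Ift46, Gm47235 and the list members given by their slopes were named after their values were seen. The value of 1 marker gene is not reported here. The gene, the lists and the tests were chosen with earlier results of these data known.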

Additional observations from a re-analysis of the deposited data

Results flagged for a closer look

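A value was singled out where the gap between the highest or lowest animal and the next was large for the range of its group of 6. This happened in 6 of 68 groups of values examined, where chance gives about 1 in 20 groups (3.4). RP24-247B20.1 itself had no such animal in either genotype.

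Gm31816 (RP23-235J18.1), 315 kb from RP24-247B20.1, had 43.29 normalized counts in wildtype animal 2, the next wildtype animal having 24.13. That library also had the highest percentage of reads on Gm10800, 11.02%, the next wildtype library having 0.3288%, and the most genes with a read, 42500 after rounding, the next having 32060. The percentage of reads on Gm10800 was also set apart in eB deletion animal 4, at 2.376%, the next eB deletion library having 0.5538%.

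Wildtype animal 3, the wildtype animal with the lowest RP24-247B20.1, had 1183 normalized counts of Dbn1, the next having 947.7, and 497.0 of Mks1, the next having 397.9. Both genes were among the 5 whose pattern ran most opposite to that of RP24-247B20.1. The association slope of Dbn1 was -0.17 without wildtype animal 3 and -0.22 with it, and that of Mks1 was -0.17 without it and -0.23 with it. Of the fits that left out 1 animal, these were the closest to 0 for both genes.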

How the results depend on the processing

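The log2 difference of RP24-247B20.1, eB deletion minus wildtype, was positive in every setting run. The gene was chosen for this difference and its groups do not overlap. Leaving out animals or changing the pseudocount could therefore not reverse the sign, and only the size is informative. Leaving out 1 animal at a time gave 1.39 to 1.79, pseudocounts of 0.5 and 5 gave 1.63 and 1.52, TMM scaling gave 1.63, edgeR gave 1.58, DESeq2 gave 1.59, and leaving out the libraries in which Gm10800 took over 1% of reads gave 1.53. Genes called between genotypes were 0 by limma, 22 by DESeq2, and 0 to 1 with 1 animal left out, the 1 arising without wildtype animal 6. Genes called for association were 0 by limma, 16 by DESeq2, 1 within eB deletion animals alone, and 0 to 3 with 1 animal left out, the 3 arising without wildtype animal 3. The cause of these moves was not tested.

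The animals' numbers did not pair the genotypes: the correlations of same-numbered animals ran from -0.12 to 0.16. With the replicate number as a block the difference of RP24-247B20.1 was 1.62 ± 0.25, 0 genes were called between genotypes and 0 for association, and 42 genes within 10 Mb had an unadjusted association p under 0.05.

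Values near 0 changed sign. The log2 fold change of Gm31816 (RP23-235J18.1) was 0.0115 with TMM scaling, 0.114 without the libraries in which Gm10800 took over 1% of reads and 0.0586 without those in which it took over 0.1%, and ran from -0.15 to 0.18 with 1 animal left out. That of Gm4791 (RP23-304K3.1) was 0.45 without the libraries with over 0.1% and ran from -0.25 to 0.20 with 1 animal left out. The relation of RP24-247B20.1 to reads on genes had r = -0.20 without the libraries with over 0.1%, and with 1 animal left out ran from -0.0350 to 0.385, that to the percentage on Gm10800 from -0.338 to 0.0394, and that to immediate early genes from -0.00266 to 0.549. The cause was not tested. Association among the 4 libraries with over 0.1% alone was not run. The 18 to 210 reads an animal limit the precision of each value of RP24-247B20.1.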
